A study of Homo sapiens with 18 samples.

Results

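Gene expression was compared between C4-2 cells in which KDM1A and KDM7A were knocked down together and C4-2 cells given a scrambled siRNA, both in the presence of androgen. The comparison was chosen by the sample titles and held 6 of the 18 RNA Seq libraries of the series, 3 with siRNA pools against KDM1A and KDM7A and 3 with scrambled siRNA (siScr). All 6 samples received R1881, a synthetic androgen, at 1 nM for 72 h, after growth in hormone-depleted medium. C4-2 (titled LNCaP:C42) is a castration-resistant line derived from the androgen-dependent prostate cancer line LNCaP, and both are established human cell lines. Beside them, 3 siScr libraries of C4-2 with vehicle gave the level of each gene without androgen, and 6 LNCaP libraries with the same siRNAs and R1881 gave the same comparison in the parental line. The titles of the 3 vehicle libraries name C42 and their cell line field names LNCaP, and they were grouped by title. Each siRNA was a pool of several duplexes against 1 target. No library analysed here had KDM1A or KDM7A knocked down alone, so the part of each gene in a change cannot be told apart. The labels number the replicates without saying that they came from separate cultures, so the p-values measure the spread between these libraries, which may be technical.

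KDM1A (LSD1) is a flavin-dependent enzyme that removes methyl groups from histone H3. Within the CoREST complex it acts on lysine 4 of histone H3 and represses genes, and in other complexes it can also act on lysine 9 and help to activate them. KDM7A belongs to the Jumonji family of iron-dependent demethylases, reads methylated lysine 4 through a PHD finger and removes repressive methyl marks from lysines 9 and 27. Most prostate cancers depend on androgens, and castration-resistant cells keep growing at low hormone levels.

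The 6 libraries held from 16611431 to 19732350 counted read pairs over 60675 genes. After a filter on low counts, 16965 genes were tested, and 14374 of them had a mean of at least 1 CPM over the 6 libraries. CPM is the count relative to the size of its library, scaled here by TMM factors, and is not corrected for gene length, so it compares libraries and not genes. The prostate luminal markers were present. Over KLK3, KLK2, HOXB13, FOLH1, TMPRSS2, KRT8, KRT18 and STEAP2, the lowest value in any library of either group was 208 CPM, for HOXB13. The sum of all 10 markers listed ran from 5169 to 5359 CPM with siScr and from 5686 to 5778 CPM under dual knockdown. Of 5 basal markers, KRT5 had 1 and TP63 had 2 counts over the 6 libraries, KRT14 had 106, and KRT15 had 103 and was called higher, and their sum was 1.35 to 1.75 CPM with siScr and 1.98 to 3.09 CPM under knockdown. The 6 fibroblast markers summed to 18.8 to 25.8 CPM with siScr and 29.3 to 37.4 CPM under knockdown. Nearly all of this was COL1A1, which was higher by adjusted p alone (0.58, adjusted p = 0.00915). PDGFRB had 1.42, 1.52 and 0.921 CPM with siScr and 1.88, 1.76 and 2.45 CPM under knockdown, without overlap (0.64, adjusted p = 0.0949). The other fibroblast markers were nearly absent, with 3 counts of COL1A2, 12 of COL3A1, 4 of DCN and 1 of LUM over the 6 libraries. Of 5 endothelial markers VWF had 940 counts and a log2FC of −0.09, while PECAM1 had 1 count. The 5 neuroendocrine and the 5 leukocyte markers each summed to under 3 CPM in every library, with SYP and LYZ at 175 and 126 counts and NEUROD1 and CD3E at 0. The share of counts from mitochondrial genes was 8.71 to 8.87% with siScr and 6.39 to 6.82% under dual knockdown. The mean GC content of the counted transcripts was 48.5% in knockdown replicate 1 and 47.5 to 47.6% in the other two knockdown libraries. The counts of knockdown replicate 1 also lay further from replicates 2 and 3 (chi-square per gene 17.4 and 15.3) than these from each other (3.57). Vehicle replicate 3 was shallow, with 3182604 counts. In bulk RNA, fewer cells of a type and less RNA per cell cannot be told apart.

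Both targeted genes fell in every knockdown library. KDM1A (chr1:23019448-23083689, GRCh38) had 145, 140.0 and 142 CPM in siScr replicates 1 to 3 and 14.5, 20.001 and 14.7 CPM in the knockdown replicates. Its level fell to 0.115 of that with siScr (95% range 0.0993 to 0.134, log2FC −3.12, SE 0.11, edgeR adjusted p = 9.78e-10). KDM7A (chr7:140084746-140177035) had 111, 118 and 132 CPM with siScr and 17.8, 24.0 and 21.7 CPM under knockdown. It fell to 0.176 of the siScr level (95% range 0.151 to 0.204, log2FC −2.51, SE 0.11, adjusted p = 9.39e-09). The siScr and knockdown libraries did not overlap for either gene (p = 0.1 by a 2-sided exact permutation test, which can give no smaller p with 3 libraries in each group). Knockdown replicate 2 kept the most of both transcripts. With vehicle, KDM1A had 123 to 132 CPM, close to siScr with R1881, and KDM7A had 50.7 to 56.6 CPM, below siScr with R1881 and above the knockdown libraries.

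A gene was called changed with an edgeR adjusted p under 0.05 and a change of at least 2-fold, and 669 of the 16965 genes tested (3.94%) were called, 424 higher (2.5%) and 245 lower (1.44%). Among the 14374 well-expressed genes, those with a mean of at least 1 CPM, 468 were called (3.26%), 303 higher (2.11%) and 165 lower (1.15%). Every knockdown library was above every siScr library for 20.8% of all genes tested and below for 19.6%. By adjusted p alone, 23.5% of all genes passed, 2150 higher (12.7%) and 1833 lower (10.8%). The median log2FC over all genes tested was 0.01. Most changes were moderate, with a median log2FC of 1.24 among the 303 raised genes and −1.21 among the 165 lowered genes. A mean of at least 100 CPM was found for 20 raised genes and 1 lowered gene. Of the raised genes 262 coded for protein, 10 were antisense RNAs and 10 were lincRNAs. Of the lowered genes 99 coded for protein, 26 were antisense RNAs and 18 were lincRNAs. The rest of both sets had no matched symbol, lay on the Y chromosome or were of other types.

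**Figure D1:**
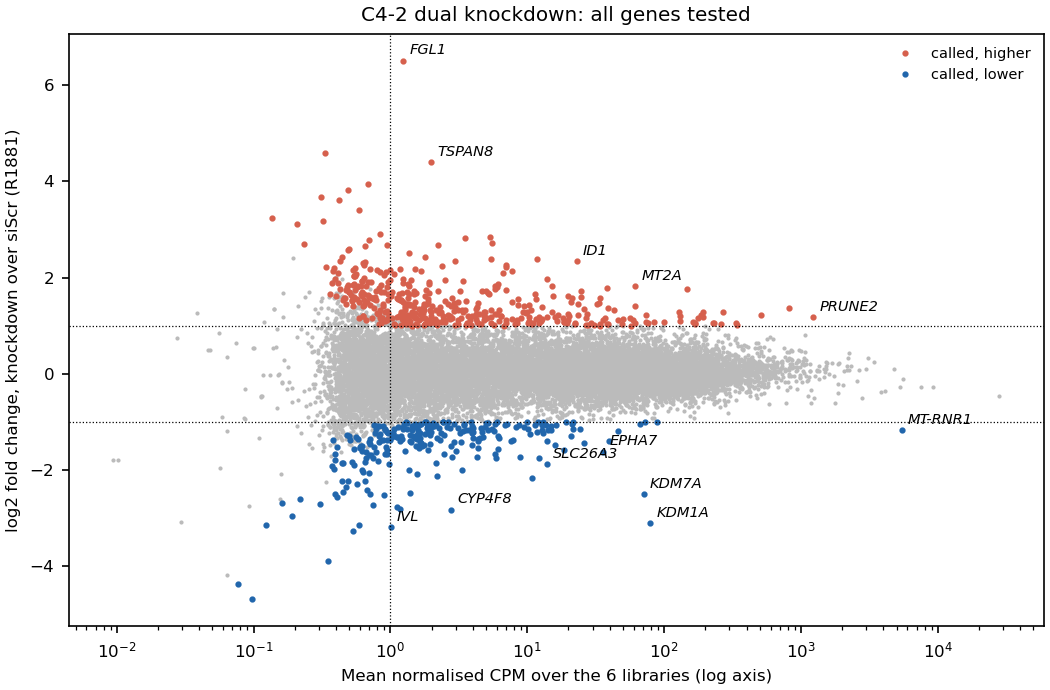
Each point is one of the 16965 genes tested in C4-2, with the mean normalised CPM of the 6 libraries on a log axis and the log2 fold change of dual knockdown over siScr, both with R1881. Red points are the 424 genes called higher, blue points the 245 called lower and grey points the rest, with dotted lines at 1 CPM and at a 2-fold change in either direction. The large changes lie at low CPM, apart from KDM1A and KDM7A, and PRUNE2 and MT-RNR1 are called genes at high CPM.

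The 12 largest increases among well-expressed genes included membrane proteins of epithelial junctions and surfaces. Several, such as FGL1, TSPAN8 and MUC3A, were under 1 CPM in every siScr library and reached the mean of 1 CPM only through the knockdown libraries. Fold changes from so low a level are imprecise. FGL1, a fibrinogen-like protein secreted mainly by liver, had 1 count in the 3 siScr libraries and 129 counts under knockdown, a ratio of 127 (95% counting interval 22.4 to 5052, which covers counting error only). FGL1 (chr8:17864380-17910365) had 2.25, 2.09 and 3.01 CPM in the knockdown replicates, and its single siScr count was in replicate 3. TSPAN8, a tetraspanin of digestive epithelium (chr12:71125085-71441898), had 0.109, 0.0564 and 0.368 CPM with siScr and 3.93, 3.53 and 3.96 CPM under knockdown. All 3 knockdown libraries lay far above the siScr range, a 21.1-fold increase (95% range 10.1 to 44.1, log2FC 4.40, SE 0.54, adjusted p = 6.58e-05). Without siScr replicate 3 the fitted log2FC was 5.38 for TSPAN8. BVES, a cAMP-binding Popeye domain protein of cell junctions (chr6:105096822-105137174), had 1.53, 1.52 and 0.859 CPM with siScr and 9.48, 9.53 and 9.29 CPM under knockdown. The knockdown libraries were almost identical to each other, 7.16-fold above siScr (95% range 5.33 to 9.61, adjusted p = 1.76e-06). PMP22, a membrane protein of myelin and of epithelial junctions (chr17:15229777-15265326), had 2.02, 1.97 and 1.17 CPM with siScr and 8.48, 9.09 and 9.86 CPM under knockdown, a 5.26-fold increase (adjusted p = 3.46e-06). The vehicle libraries, with 10.5 to 15.04 CPM of PMP22, were all above both R1881 groups. MUC3A, a membrane-bound mucin of intestine (chr7:100949555-100968346), had 0.328, 0.451 and 0.430 CPM with siScr and 2.25, 2.20 and 2.57 CPM under knockdown, 5.73-fold higher (adjusted p = 8.07e-05).

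The other large increases were in immune, signalling and regulatory genes. SAMD9, an interferon-induced antiviral protein (chr7:93099513-93118023), had 0.820, 0.620 and 1.17 CPM with siScr and 4.76, 6.17 and 7.66 CPM under knockdown. Its lowest knockdown library was above its highest siScr library, and the increase was 7.11-fold (95% range 4.92 to 10.3, adjusted p = 8.50e-06). CRACR2A, a calcium sensor that regulates store-operated calcium entry (chr12:3606633-3764819), had 1.48, 1.18 and 1.72 CPM with siScr and 11.1, 7.88 and 9.98 CPM under knockdown, 6.60-fold higher (adjusted p = 2.88e-05). ANG, the secreted ribonuclease angiogenin (chr14:20684177-20698971), had 0.328, 0.508 and 0.859 CPM with siScr and 3.25, 3.42 and 2.39 CPM under knockdown, 5.35-fold higher (adjusted p = 0.000720). TRIM47, a RING-type ubiquitin ligase (chr17:75874161-75878575), had 0.601, 0.395 and 0.798 CPM with siScr and 5.76, 2.87 and 2.83 CPM under knockdown. Knockdown replicate 1 was well above the other two knockdown libraries, and the 6.38-fold increase (adjusted p = 0.000106) held with each library left out. HLA-DMB, a chaperone that loads peptides onto class II molecules (chr6:32934629-32941070), had 0.929, 1.24 and 0.737 CPM with siScr and 6.81, 3.97 and 4.14 CPM under knockdown, 5.10-fold higher (adjusted p = 0.000121) and again highest in knockdown replicate 1. BTN3A2 and ID1, the remaining members of the 12, are described with their families below. The largest increase outside the 12 was that of NES at a log2FC of 2.26.

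The 12 largest decreases among well-expressed genes with a symbol included both targeted genes, enzymes, a transporter and RNA genes, and the largest was that of IVL. CYP4F8, a cytochrome P450 that hydroxylates prostaglandin endoperoxides (chr19:15615218-15630638), had 4.97, 4.74 and 4.85 CPM with siScr and 0.733, 0.606 and 0.691 CPM under knockdown. The libraries of each group were tight, and CYP4F8 fell to 0.141 of the siScr level (95% range 0.0979 to 0.203, log2FC −2.83, SE 0.27, adjusted p = 8.01e-06). In the vehicle libraries CYP4F8 had 0.207 to 0.590 CPM. SDR9C7, a short-chain dehydrogenase of the skin lipid barrier (chr12:56923154-56934405), had 3.88, 3.84 and 3.01 CPM with siScr and 0.942, 0.441 and 1.07 CPM under knockdown, and fell to 0.229 (adjusted p = 0.000444). PLA2G7, the phospholipase that inactivates platelet-activating factor (chr6:46704201-46735693), had 2.73, 2.43 and 2.39 CPM with siScr and 0.681, 0.386 and 0.691 CPM under knockdown, and fell to 0.234 (adjusted p = 0.000287). SLC26A3, a chloride and bicarbonate exchanger of colon (chr7:107765467-107803225), had 24.3, 18.1 and 22.9 CPM with siScr and 6.07, 6.34 and 5.34 CPM under knockdown. Every knockdown library held less than every siScr library, a fall to 0.272 (95% range 0.221 to 0.336, adjusted p = 2.60e-06), while the vehicle libraries were at 0 to 0.0572 CPM.

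IVL, involucrin, a precursor of the cornified envelope of skin (chr1:152908545-152911886), had 1.75, 1.64 and 2.03 CPM with siScr and 0.105, 0.0551 and 0.440 CPM under knockdown, and fell to 0.110 (95% range 0.0563 to 0.213, adjusted p = 0.000352). Without knockdown replicate 3 its log2FC moved from −3.19 to −4.36. DIRAS2, a small GTPase of the Ras family (chr9:90609832-90643104), had 1.91, 2.37 and 2.33 CPM with siScr and 0.733, 0.331 and 0.565 CPM under knockdown, and fell to 0.2497 (adjusted p = 0.00342). ADAM32, a testis-expressed member of the ADAM protease family (chr8:39106990-39284911), had 1.09, 1.80 and 3.01 CPM with siScr and 0.262, 0.496 and 0.0628 CPM under knockdown, with a wide spread in both groups that did not overlap. Its log2FC was −2.77 (SE 0.51, adjusted p = 0.00140), and −3.47 without knockdown replicate 2. The overlapping RNA genes AP001528.2 (chr11:86892214-86925037) and AP001528.3 (chr11:86908990-86912238) fell to 0.179 and 0.142 of the siScr level. They overlap each other and PRSS23, which is on the opposite strand, and the reads were counted without strand, so their separate values are uncertain. AL133338.1, an RNA gene of no known role (chr6:100881471-100882987), fell to 0.223 (adjusted p = 3.81e-06). The next decrease among genes with a symbol was that of HIST1H4PS1 at a log2FC of −1.86, and a gene without a matched symbol, which the naming rule passes over, had a log2FC of −2.00.

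**Figure D2:**
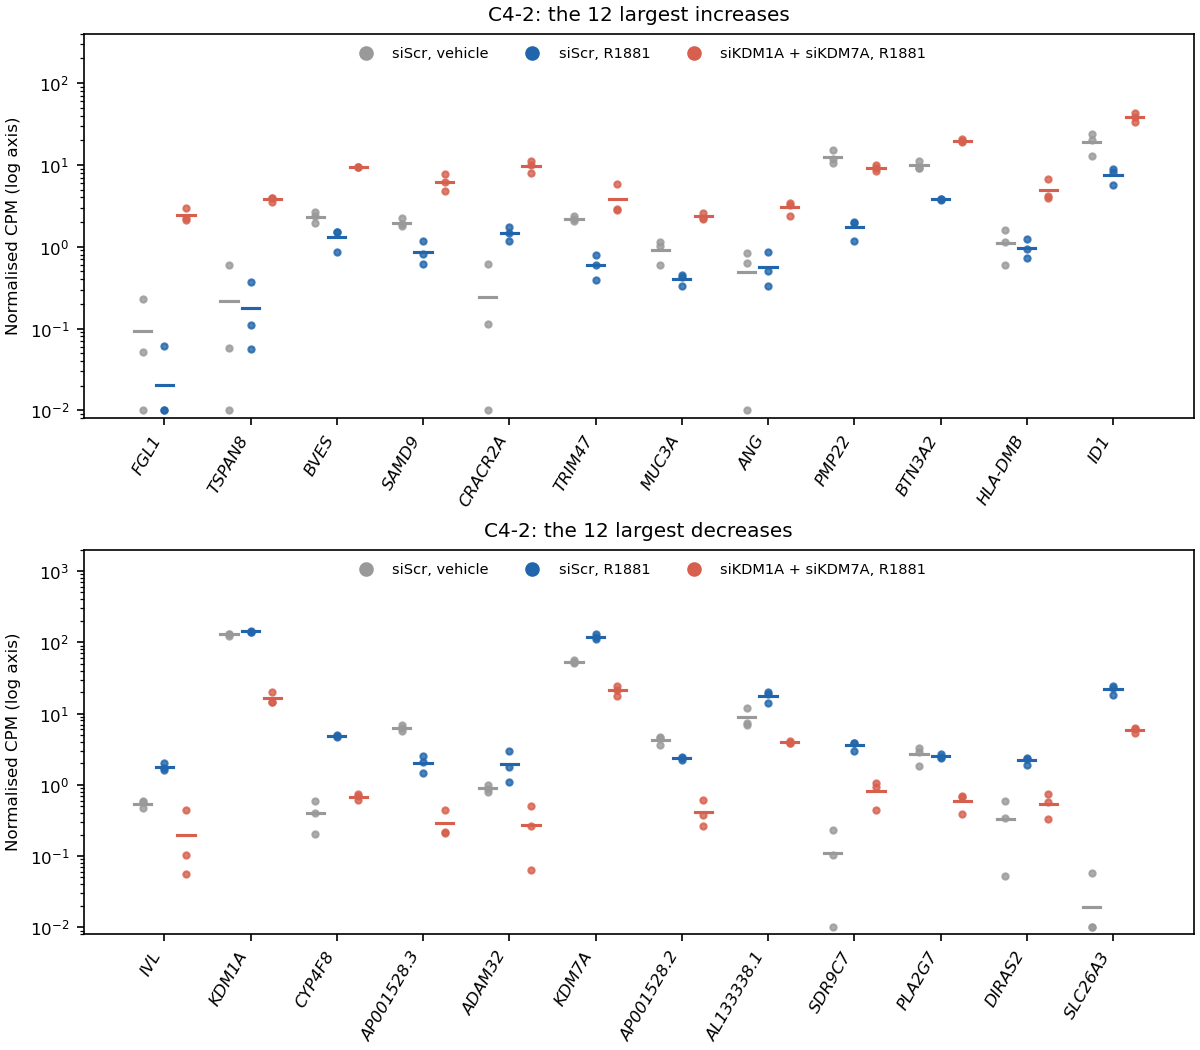
Normalised CPM on a log axis in each C4-2 library for the 12 largest increases (top) and the 12 largest decreases (bottom) among called genes with a symbol, a mean of at least 1 CPM and groups that do not overlap. Grey points are siScr with vehicle, blue points siScr with R1881 and red points dual knockdown with R1881, horizontal bars are means of 3 libraries, and values under 0.01 CPM are drawn at 0.01. The red and blue points stand apart for every gene, and the grey vehicle points lie between, above or below them depending on the gene.

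Among the abundant raised genes were enzymes, a chaperone and cell-matrix proteins. PRUNE2, the gene within which the prostate cancer RNA PCA3 lies (chr9:76611376-76906087), had 689, 809 and 760.2 CPM with siScr and 1443, 1794 and 1875 CPM under knockdown. It was 2.26-fold higher (95% range 1.97 to 2.61, adjusted p = 4.15e-06). PCA3 itself, on the opposite strand, had a mean of 4.31 CPM and a log2FC of 1.39. HSPB1, the small heat shock protein HSP27 (chr7:76302544-76304295), had 471, 467 and 439 CPM with siScr and 1624, 949 and 964 CPM under knockdown. All knockdown libraries were above siScr, with replicate 1, the library of higher GC content, well above the rest (2.57-fold, adjusted p = 4.23e-05). NQO1, a quinone reductase of the NRF2 antioxidant response (chr16:69706996-69726951), had 217, 219.8 and 215 CPM with siScr and 458, 439.8 and 449 CPM under knockdown, 2.07-fold higher (adjusted p = 6.97e-07).

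ELOVL7, an elongase of long fatty acids (chr5:60751791-60844389), had 121, 113 and 123 CPM with siScr and 241, 281 and 282 CPM under knockdown, 2.25-fold higher (adjusted p = 5.94e-07). ST6GALNAC1, the sialyltransferase that makes the sialyl-Tn antigen (chr17:76624761-76643838), had 220.4, 232 and 229 CPM with siScr and 488, 439 and 449.999 CPM under knockdown, 2.02-fold higher (adjusted p = 6.97e-07). Both genes were lowest in the vehicle libraries, at 23.0 to 24.2 CPM for ELOVL7 and 24.9 to 26.5 CPM for ST6GALNAC1, so the knockdown libraries were furthest from vehicle. AHNAK, a giant scaffold protein under the cell membrane, was 2.44-fold higher (95% range 2.11 to 2.81). CD2AP, an adaptor between membrane and actin, was 2.05-fold higher, and NEAT1, the RNA scaffold of nuclear paraspeckles, 2.08-fold higher. Some of these genes fell just under the 2-fold limit without 1 library, with an adjusted p still under 0.05. The log2FC of ST6GALNAC1 was 0.96 without knockdown replicate 1, that of CD2AP was 0.98 without siScr replicate 2 or knockdown replicate 3, and that of NEAT1 was 0.97 without siScr replicate 1. SLC16A1, the lactate transporter MCT1, was chosen after its values were seen. It had 66.1, 69.5 and 65.5 CPM with siScr and 222, 225 and 239 CPM under knockdown, 3.41-fold higher (95% range 3.02 to 3.85, adjusted p = 4.84e-08).

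The lowered genes of highest CPM were of several kinds. RUNX1, a transcription factor of blood and epithelial development (chr21:34787801-36004667), had 62.3, 49.8 and 60.1 CPM with siScr and 21.3, 22.7 and 20.8 CPM under knockdown. The knockdown libraries were all well below siScr and above the 1.89 to 3.31 CPM of the vehicle libraries, a fall to 0.376 (95% range 0.315 to 0.450, adjusted p = 7.38e-06). EPHA7, a receptor of ephrins (chr6:93240020-93419547), had 55.4, 52.1 and 54.9 CPM with siScr and 16.5, 18.2 and 17.96 CPM under knockdown. It fell to 0.324 (95% range 0.286 to 0.368, adjusted p = 1.15e-07), to within the range of the vehicle libraries (15.2 to 17.7 CPM) or just above. ITPR1, the receptor through which inositol trisphosphate releases calcium (chr3:4493348-4847840), had 32.5, 41.3 and 39.8 CPM with siScr and 12.04, 15.04 and 14.6 CPM under knockdown, a fall to 0.367 (adjusted p = 2.71e-06). TBC1D8, of the family that inactivates Rab GTPases, fell to 0.440, and SNN, a small membrane protein, to 0.484. CPEB4, which controls the poly(A) tails of mRNAs, fell to 0.496, and PPM1H, a phosphatase, to 0.494. The last 3 were near the limit, with log2FCs of −0.96 for SNN without knockdown replicate 3, and of −0.94 for CPEB4 and −0.98 for PPM1H without knockdown replicate 1. CPEB4 was also under it without siScr replicate 3 (−0.98).

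MT-RNR1, the small ribosomal RNA of mitochondria, had 7676, 7668 and 7346 CPM with siScr and 3174, 3559 and 3302 CPM under knockdown, a fall to 0.442 (95% range 0.380 to 0.515, adjusted p = 8.01e-06). The other mitochondrial genes, chosen after their values were seen, lay lower by less. The large ribosomal RNA MT-RNR2 had a log2FC of −0.46, and the 13 mitochondrially encoded proteins of the respiratory chain a median of −0.34. None of the 13 was called, 7 were lower by adjusted p alone, and for all 13 every knockdown library was below every siScr library (19.6% of all genes tested were lower in this way). They ran from −0.64 for MT-ND6 to −0.12 for MT-CO3.

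**Figure D3:**
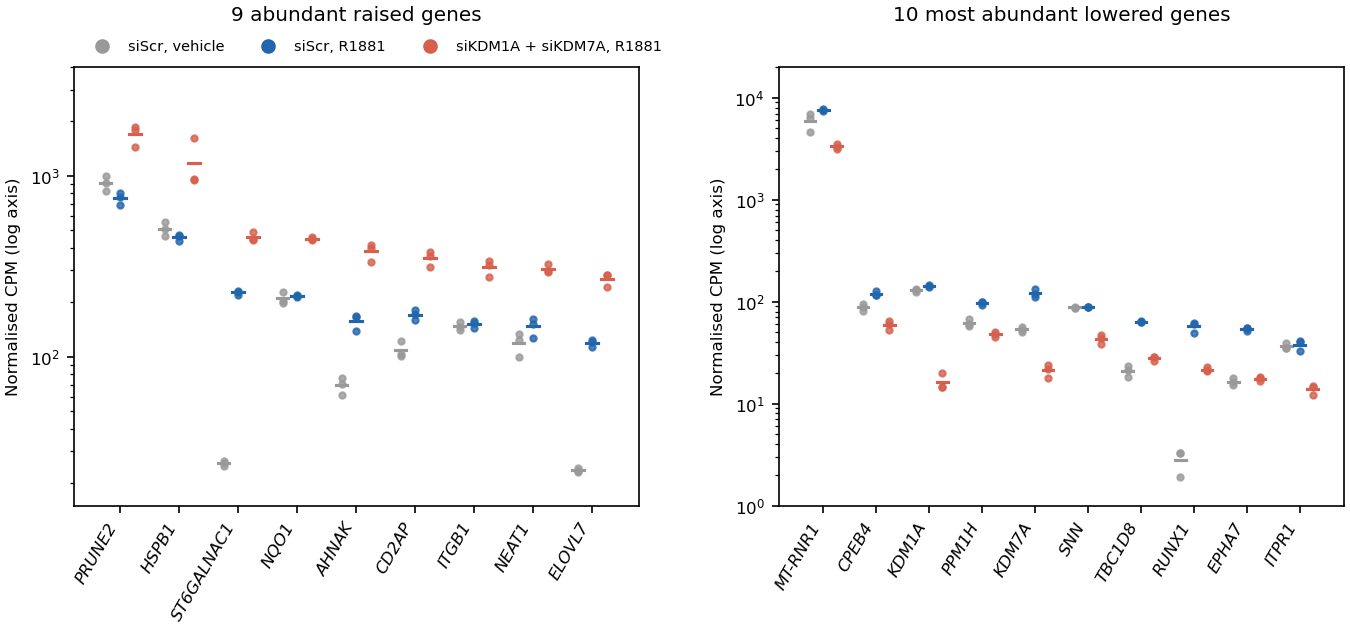
Normalised CPM on a log axis in each C4-2 library for 9 of the 10 raised (left) and for the 10 lowered (right) called genes of highest mean CPM. Colours and bars are as in the plot of the largest changes. For ST6GALNAC1 and ELOVL7 the vehicle points lie at the bottom and the knockdown points at the top.

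Genes were also described by lists of known function, each by its members tested and called and, for some lists, its median log2FC. The background over all genes is given above. Counts of members higher or lower by adjusted p include those called. The plot of list members shows 20 of the lists. Among these, medians were highest for androgen-repressed genes and, only through genes under 1 CPM, for genes of liver and digestive tract.

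**Figure D4:**
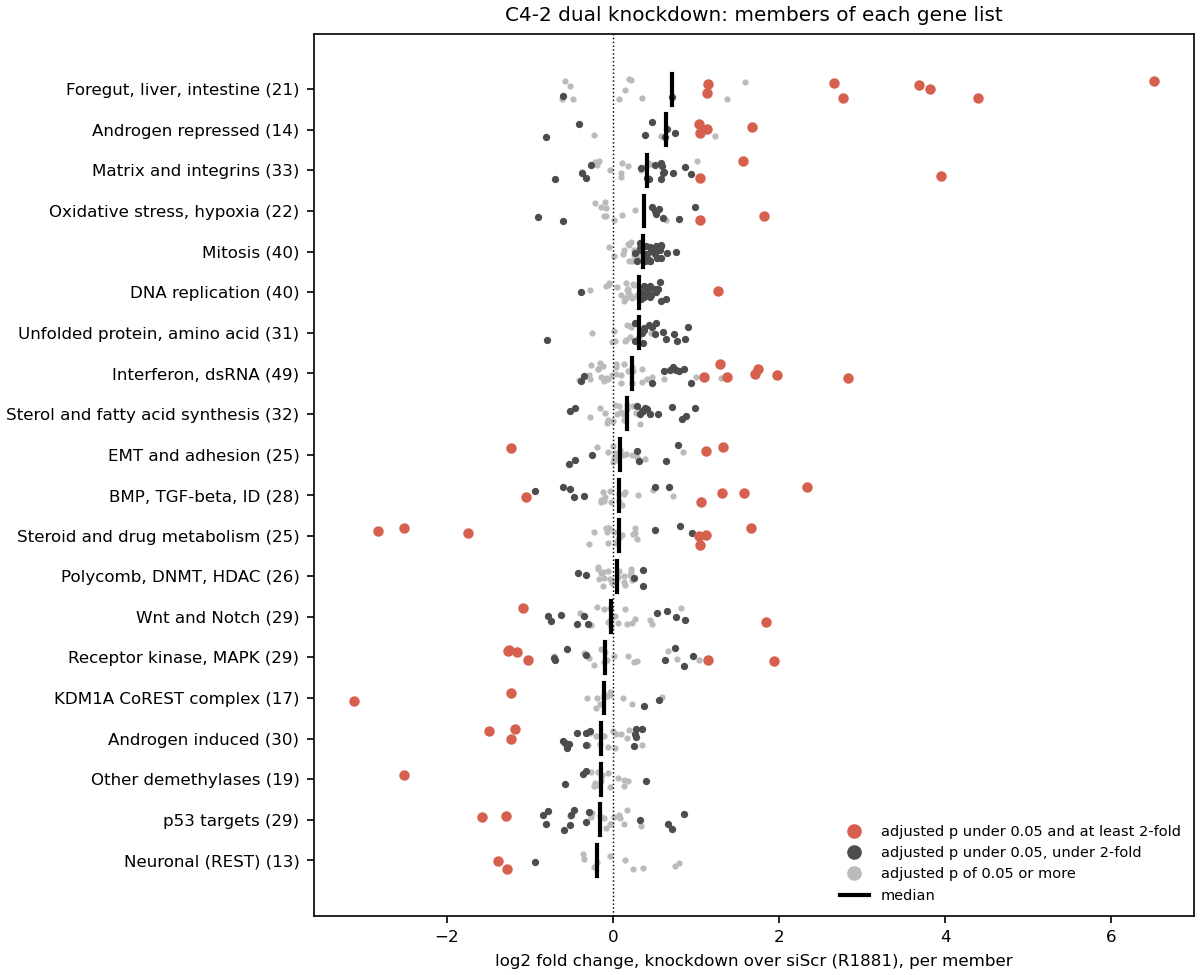
Log2 fold change of dual knockdown over siScr in C4-2 with R1881 for each member tested of 20 gene lists, with the number tested in brackets. Red points passed both thresholds, dark points passed the adjusted p alone, light points passed neither, black bars are list medians and the dotted line is the median of all genes tested. Liver and digestive tract genes have the widest spread to the right, and the mitosis and DNA replication lists are narrow and shifted to the right.

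Few partners and relatives of the targeted enzymes were called. Of 17 members tested of the CoREST complex and its DNA-binding partners, KDM1A and SNAI2 were called, both lower, and none was higher. The scaffold subunit RCOR1 had a log2FC of −0.07, and HDAC1 and HDAC2, the deacetylases of the complex, had 0.13 and −0.10. Of 19 other histone demethylases tested, only KDM7A was called. PHF8, a close relative of KDM7A, had a log2FC of 0.18, PHF2, another relative, −0.36, and KDM1B, the relative of KDM1A, −0.06. Of 26 Polycomb, DNA methyltransferase and related chromatin genes tested, none was called, while RBBP4, a histone chaperone, was lower by adjusted p alone (−0.41, adjusted p = 0.00392).

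Of 30 androgen-induced genes, none was called higher and 3 lower, 5 were higher and 11 lower by adjusted p, and the median was −0.15. KLK3, which encodes PSA, had 393, 379 and 418 CPM with siScr and 383, 298 and 300.3 CPM under knockdown, with knockdown replicate 1 inside the siScr range (log2FC −0.28, adjusted p = 0.0599). KLK2 and TMPRSS2, also androgen-induced, had log2FCs of 0.27 and 0.20. The vehicle libraries had 18.9 to 24.3 CPM of KLK3, far below both R1881 groups. ACSL3, a fatty acid activating enzyme, was lower by adjusted p alone (−0.60, adjusted p = 7.46e-05). FOXA1, a pioneer factor that opens chromatin, had a log2FC of 0.39 (adjusted p = 0.00167) and GRHL2, an epithelial transcription factor, −0.53 (adjusted p = 0.000288).

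The 3 lowered members were ORM1, SNAI2 and TRGC1. SNAI2, a repressor of epithelial genes that recruits KDM1A (chr8:48917690-48921740), had 19.5, 16.4 and 18.9 CPM with siScr, 8.22, 7.44 and 7.72 CPM under knockdown and 0 to 0.207 CPM with vehicle. It fell to 0.427 (95% range 0.354 to 0.515, adjusted p = 3.00e-05) and stayed far above vehicle. ORM1, the acute-phase protein orosomucoid (chr9:114323056-114326475), had 6.23, 5.75 and 5.52 CPM with siScr and 2.88, 1.54 and 1.76 CPM under knockdown, a fall to 0.355 (adjusted p = 0.000868). Its near-identical neighbour ORM2 had a log2FC of −1.75, and reads may be divided between them. TRGC1 had a log2FC of −1.18 (adjusted p = 0.00137) beside its paralogue TRGC2.

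Among androgen-repressed genes the calls were increases. Of 14 tested, 4 were called higher and none lower, 9 were higher and 2 lower by adjusted p, and the median was 0.64. UGT2B15, an enzyme that conjugates and clears androgens (chr4:68537413-68670628), had 26.4, 27.5 and 22.6 CPM with siScr, 47.5, 52.8 and 57.3 CPM under knockdown and 85.7 to 119 CPM with vehicle. UGT2B17, its close relative (chr4:68537184-68568527), had 9.62, 7.56 and 6.57 CPM with siScr, 14.0, 17.5 and 17.8 CPM under knockdown and 28.0 to 36.0 CPM with vehicle. Both stood between the siScr and vehicle levels under knockdown, 2.06-fold (adjusted p = 3.74e-05) and 2.07-fold (adjusted p = 0.000216) above siScr, and as overlapping near-copies they may share reads. SI, the intestinal sucrase-isomaltase, had 1.53, 1.07 and 1.35 CPM with siScr, 2.57, 3.09 and 3.08 CPM under knockdown and 14.2 to 15.4 CPM with vehicle, 2.20-fold higher under knockdown (adjusted p = 0.000827). EDN2, an endothelin, was called 3.21-fold higher (adjusted p = 0.0216), but its knockdown replicate 3 lay inside the siScr range. Of the lowered members, CCND1, the G1 cyclin D1, had a log2FC of −0.40 (adjusted p = 0.00109). The count of 4 was 2 without siScr replicate 2, siScr replicate 3 or knockdown replicate 3. Without siScr replicate 3 the log2FC of UGT2B15 was 0.96 and that of UGT2B17 was 0.93, and without knockdown replicate 3 they were 0.97 and 0.99. That of SI was just under 1 without siScr replicate 2. EDN2 lost its call without siScr replicate 1 or 2 or knockdown replicate 1 or 2, with adjusted p from 0.0521 to 0.104.

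Genes of liver and the digestive tract had a list median of 0.71, although 26 of the 47 listed genes had too few counts to be tested. Of the 21 tested, 8 were called higher and none lower, and 4 were called when only genes of at least 1 CPM were tested. The median was 0.32 when only the 6 libraries compared were fitted, 0.35 among genes of at least 1 CPM and 0.47 without knockdown replicate 3. A gene could pass the filter through the knockdown group alone, so the count describes these genes and supports nothing further. Beside FGL1, TSPAN8 and SI, the called members included the blood proteins ALB and GC, encoding albumin and the vitamin D binding protein. ALB had 3 counts over the siScr libraries and 48 under knockdown, a ratio of 15.7 (95% counting interval 5.07 to 79.0). GC had 2 counts, both in siScr replicate 3, and 31 under knockdown, a ratio of 15.3 (95% counting interval 3.88 to 132). The vehicle libraries had 6.86 to 9.73 CPM of GC and 0.629 to 2.06 CPM of ALB, against 0.576, 0.551 and 0.628 and 0.785, 0.606 and 1.38 CPM under knockdown. The fitted log2FC was 6.26 for GC without siScr replicate 3 and 4.64 for ALB without siScr replicate 2, from 3.68 and 3.82 with all libraries, and at so few counts such a fit depends on the prior count and is no bound.

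Among secreted proteins of mucosa, chosen after their values were seen, TFF1, a trefoil peptide, had 0.109, 0.282 and 0.123 CPM with siScr and 0.890, 1.05 and 1.76 CPM under knockdown. SPINK1, a trypsin inhibitor, had 0, 0.395 and 0.368 CPM with siScr and 1.36, 1.54 and 2.01 CPM under knockdown. For both, every knockdown library was above every siScr library (log2FC 2.77, adjusted p = 0.000894, and 2.67, adjusted p = 0.00455). AGR2, a disulphide isomerase of mucous cells, had a log2FC of 1.14 (adjusted p = 0.0281). The liver genes APOA1, TTR and SERPINA1 did not pass, with log2FCs of −0.58, −0.52 and −0.62. The median was 0.35 among genes of at least 1 CPM, 0.32 with only the 6 libraries compared and 0.47 without knockdown replicate 3, and 4 members rather than 8 were called among genes of at least 1 CPM.

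The inhibitors of differentiation were raised together. ID proteins bind basic helix-loop-helix factors and keep them from DNA, and their genes are classic targets of BMP signalling. ID1 (chr20:31605283-31606515) had 8.14, 8.85 and 5.71 CPM with siScr and 43.5, 33.1 and 38.5 CPM under knockdown. Knockdown libraries were all above both the siScr and the vehicle libraries (12.7 to 23.9 CPM), 5.05-fold over siScr (95% range 3.84 to 6.63, log2FC 2.34, SE 0.20, adjusted p = 3.46e-06). ID3 (chr1:23557918-23559794) had 10.5, 13.0 and 8.59 CPM with siScr and 35.8, 29.04 and 31.0 CPM under knockdown, 2.98-fold higher (95% range 2.39 to 3.72, adjusted p = 1.45e-05). ID2 (chr2:8678845-8684453) had 6.45, 7.61 and 7.31 CPM with siScr and 15.3, 13.9 and 15.4 CPM under knockdown, 2.09-fold higher (adjusted p = 3.76e-05), with a log2FC of just under 1 without siScr replicate 1. SMAD7, an inhibitory SMAD induced by BMP and TGF-beta (chr18:48919853-48950711), had 1.42, 2.31 and 1.96 CPM with siScr and 4.76, 4.79 and 4.65 CPM under knockdown, 2.49-fold higher (adjusted p = 0.000531). Most upstream members of the pathway were not called. Of 28 tested, 4 were called higher and 1 lower, with a median of 0.08. The median ran from −0.03 to 0.17 without 1 library, and 2 members were called lower without knockdown replicate 2. The lowered member was the ligand BMP6 (log2FC −1.05, adjusted p = 0.0132), which lost its call without siScr replicate 1 or siScr replicate 3. The receptor BMPR1B (−0.93) and the signal transducer SMAD3 (−0.60) were lower by adjusted p alone, and SMAD1, SMAD4 and SMAD5 had log2FCs of 0.08, −0.11 and 0.14.

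Interferon-stimulated genes are switched on by transcription factors that bind a paired GAAA element in their promoters. Loss of KDM1A is known in other cells to raise double-stranded RNA and this response. Of 49 members tested here, 7 were called higher and none lower, 15 were higher and 2 lower by adjusted p, and the median was 0.23. IFIT1, an antiviral protein that binds foreign RNA (chr10:89392546-89406486), had 0.492, 0.733 and 0.246 CPM with siScr and 2.09, 2.04 and 1.76 CPM under knockdown. IFIT3, its partner (chr10:89327894-89340971), had 0.656, 0.733 and 0.675 CPM with siScr and 2.46, 1.98 and 2.39 CPM under knockdown. Both were low, and in both every knockdown library was above every siScr library, 3.93-fold (95% range 2.31 to 6.71, adjusted p = 0.00232) and 3.28-fold (95% range 2.19 to 4.92, adjusted p = 0.000901). IFIT1 and IFIT3 overlap LIPA on the opposite strand, which had a mean of 69.2 CPM and a log2FC of −0.13. IFI35, an interferon-induced leucine zipper protein (chr17:43006725-43014456), had 3.06, 2.20 and 4.36 CPM with siScr and 12.4, 9.26 and 10.5 CPM under knockdown, 3.35-fold higher (adjusted p = 5.44e-05). The remaining raised members, chosen after their values were seen, were TLR3, the endosomal sensor of double-stranded RNA (1.38), OAS1, which makes the signal for RNase L (1.29), and PSMB8, a subunit of the immunoproteasome (1.10). Among members not called, ISG15, a ubiquitin-like modifier, had 32.8, 25.3 and 26.5 CPM with siScr and 35.1, 21.4 and 21.8 CPM under knockdown (log2FC −0.11), and IFITM3, which blocks viral entry, had 55.0, 55.1 and 50.3 and 64.8, 51.8 and 48.4 CPM (log2FC 0.04). The groups of both genes overlapped. MX1 had a log2FC of 0.24, and the double-stranded RNA sensors IFIH1 and DDX58 had 0.36 and 0.10. Members higher by adjusted p alone included IFI6 (0.95), OAS3 (0.86), TAP2 (0.80) and PARP14 (0.76). B2M was among the 2 lower ones (−0.38).

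The promoters of members that were raised and of members that were not called are set side by side to show that both kinds hold the element. Each sequence is the 250 bases before the gene's start in RefSeq (GRCh38.p14), 5′ to 3′ on the gene's strand, and capitals mark the element searched, GAAA, any 2 bases and GAAA again. It was searched on both strands, so that TTTC, any 2 bases and TTTC is the element on the other strand. Neighbouring matches may overlap, as in ISG15. IFIT3 has another start in RefSeq, whose window also held 2 matches and is not shown. The raised genes are SAMD9, IFIT1 and IFIT3, and the genes that were not called are ISG15 and IFITM3.
SAMD9 (chr7:93117980-93118229, minus strand): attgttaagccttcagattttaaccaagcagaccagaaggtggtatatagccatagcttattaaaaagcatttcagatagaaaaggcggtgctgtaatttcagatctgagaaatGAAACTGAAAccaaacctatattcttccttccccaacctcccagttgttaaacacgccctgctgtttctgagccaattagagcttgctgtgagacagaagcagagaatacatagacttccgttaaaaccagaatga
IFIT1 (chr10:89392373-89392622, plus strand): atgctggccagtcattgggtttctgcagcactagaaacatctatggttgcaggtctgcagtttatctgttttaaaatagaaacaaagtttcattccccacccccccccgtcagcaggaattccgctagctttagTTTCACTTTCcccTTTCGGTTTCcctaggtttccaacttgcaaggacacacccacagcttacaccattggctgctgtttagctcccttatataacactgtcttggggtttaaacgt
IFIT3 (chr10:89327747-89327996, plus strand): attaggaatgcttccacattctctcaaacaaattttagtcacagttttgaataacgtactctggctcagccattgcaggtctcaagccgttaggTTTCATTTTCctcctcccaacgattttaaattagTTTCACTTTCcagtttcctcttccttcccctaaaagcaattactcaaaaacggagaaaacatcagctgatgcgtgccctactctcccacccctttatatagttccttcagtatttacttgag
ISG15 (chr1:1013247-1013496, plus strand): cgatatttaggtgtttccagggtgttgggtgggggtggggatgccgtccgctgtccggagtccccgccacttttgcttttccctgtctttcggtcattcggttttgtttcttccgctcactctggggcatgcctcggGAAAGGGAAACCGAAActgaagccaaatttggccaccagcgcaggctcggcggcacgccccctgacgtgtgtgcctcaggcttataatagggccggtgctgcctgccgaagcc
IFITM3 (chr11:320861-321110, minus strand): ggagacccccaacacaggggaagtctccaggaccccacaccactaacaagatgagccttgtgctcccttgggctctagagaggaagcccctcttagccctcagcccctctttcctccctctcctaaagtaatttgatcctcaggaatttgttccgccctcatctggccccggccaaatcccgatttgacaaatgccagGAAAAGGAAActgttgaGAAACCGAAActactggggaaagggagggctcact

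The element was present in the promoters of 22 of the 38 interferon list members with a RefSeq promoter (57.9%), against 3.02% of all 35116 promoter windows and 3.26% of those of genes tested. Among the called interferon genes it was in 3 of 7. Over all well-expressed raised genes it was in 5.14% of 214 and over lowered genes in 4.0% of 100. A match of letters is a description and not a bound site.

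BTN3A2, a butyrophilin (chr6:26365159-26378320), had 3.72, 3.84 and 3.81 CPM with siScr and 19.7, 20.6 and 19.2 CPM under knockdown. Both groups were tight, and the increase was 5.23-fold (95% range 4.43 to 6.19, log2FC 2.39, adjusted p = 4.84e-08). Its relatives, chosen after their values were seen, were BTN3A3, with 2.57, 2.20 and 2.70 CPM and 12.9, 11.5 and 10.2 CPM, and BTN3A1, the member that presents phosphoantigens to gamma delta T cells, with 2.79, 2.65 and 1.90 CPM and 7.33, 8.43 and 7.91 CPM. They were 4.64-fold (adjusted p = 5.49e-06) and 3.21-fold (adjusted p = 3.16e-05) higher, and as close copies the 3 genes may share reads. HLA-DMA, the partner of HLA-DMB and also chosen later, had 6.01, 5.53 and 5.10 CPM with siScr and 14.2, 10.2 and 12.7 CPM under knockdown, 2.23-fold higher (adjusted p = 0.000352). The class I genes HLA-B and HLA-C had log2FCs of −0.18 and −0.08, and B2M, the light chain of class I, was lower by adjusted p alone (−0.38).

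Of 33 genes of matrix and cell attachment tested, 3 were called higher and none lower, 15 were higher and 4 lower by adjusted p, and the median was 0.42. ITGB1, the beta subunit shared by most integrins of matrix (chr10:32900319-33005792), had 144, 157 and 154 CPM with siScr and 277, 323 and 340.1 CPM under knockdown. ITGA1, its alpha partner for collagen (chr5:52787896-52959210), had 5.41, 5.64 and 6.51 CPM with siScr and 15.8, 17.8 and 18.3 CPM under knockdown. Both were higher in every knockdown library, 2.07-fold (adjusted p = 2.55e-06) and 2.95-fold (adjusted p = 2.08e-06). Without knockdown replicate 3 the log2FC of ITGB1 was 0.98, and ITGA1 overlaps PELO, which had a mean of 89.2 CPM and a log2FC of 0.18. MMP7, the protease matrilysin (chr11:102520508-102530753), had 0, 0.113 and 0.123 CPM with siScr and 1.31, 1.27 and 1.32 CPM under knockdown, 15.5-fold higher from a few reads (95% range 7.37 to 32.5, adjusted p = 0.000155). Laminins form basement membrane, and of the 9 laminin genes tested 8 were higher and 1 lower by adjusted p, with 1 of the 8 called (LAMB4, log2FC 1.53, named after its value was seen). LAMB3 (0.87), LAMA3 (0.60) and LAMC1 (0.51) were among the 8 without reaching 2-fold, and LAMA1 was the lower one (−0.32). THBS1, an adhesive matrix protein, was lower by adjusted p alone (−0.69). The fibroblast marker COL1A1 was higher by adjusted p as well, while the fibroblast markers COL1A2, COL3A1 and DCN had 3, 12 and 4 counts over the 6 libraries. The part of such cells in these changes was not tested.

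Of 25 epithelial and mesenchymal genes tested, 2 were called higher and 1, SNAI2, lower, and the median was 0.08. The median ran from 0.04 to 0.13 without 1 library. OVOL1, a repressor of the mesenchymal programme (chr11:65787022-65797219), had 3.17, 3.61 and 3.74 CPM with siScr and 10.2, 7.99 and 8.29 CPM under knockdown, 2.52-fold higher (adjusted p = 9.75e-05). CLDN3, a tight junction claudin, had 37.7, 37.7 and 37.2 CPM with siScr and 119, 59.8 and 66.1 CPM under knockdown, 2.17-fold higher (adjusted p = 0.000872). Knockdown replicate 1, the library of higher GC content, was again the highest, and the log2FC of CLDN3 was 0.74 without it and 0.96 with the GC trend removed. CDH1, the epithelial cadherin, was lower by adjusted p alone (−0.25), and the mesenchymal genes VIM and ZEB1 did not pass (0.39 and 0.84). KRT15, a basal keratin, had 0.273, 0.395 and 0.552 CPM with siScr and 2.04, 1.21 and 1.32 CPM under knockdown (log2FC 1.90, adjusted p = 0.00629), while the luminal keratins KRT8 and KRT18 had log2FCs of 0.01 and 0.04.

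Receptor tyrosine kinase and MAPK genes went both ways. Of 29 tested, 2 were called higher and 4 lower. The adaptors that carry the insulin and IGF signal were lowered together. IRS1 (chr2:226731317-226799759) had 33.8, 31.0 and 35.8 CPM with siScr and 17.5, 14.4 and 13.1 CPM under knockdown. IRS2 (chr13:109752698-109786568) had 16.1, 14.1 and 13.8 CPM with siScr and 6.86, 5.51 and 5.96 CPM under knockdown. Every knockdown library was below every siScr library for both, a fall to 0.448 (95% range 0.358 to 0.561, adjusted p = 0.000199) and to 0.417 (95% range 0.316 to 0.550, adjusted p = 0.000518), and the vehicle libraries were lower again for both (3.24 to 8.52 and 1.18 to 4.45 CPM). IGF1R, the receptor upstream, was lower by adjusted p alone (−0.55, adjusted p = 0.000561), as was EGFR (−0.69, adjusted p = 0.000106). IGFBP5, which binds IGFs, fell by 1.25 on the log2 scale, at an adjusted p of 0.0484 that rose to between 0.0522 and 0.180 in 8 of the 9 fits with 1 library less. FGFR1, a fibroblast growth factor receptor chosen after its values were seen, had a log2FC of −1.02 (adjusted p = 0.0257). DUSP5, a nuclear phosphatase of ERK (chr10:110497838-110511544), had 0.437, 0.282 and 0.491 CPM with siScr and 1.10, 1.43 and 2.20 CPM under knockdown, 3.84-fold higher (adjusted p = 0.00161), with vehicle at 3.67 to 5.60 CPM. HGF, the ligand of MET and also chosen later, had 15.7, 18.4 and 16.3 CPM with siScr and 31.3, 38.6 and 42.1 CPM under knockdown (log2FC 1.15, adjusted p = 1.03e-05). The 4 lowered members were 2 without siScr replicate 1, 2 or 3 or without knockdown replicate 2.

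Of 29 Wnt and Notch genes, 1 was called in each direction. FZD8, a Wnt receptor, had 21.97, 22.8 and 21.1 CPM with siScr and 12.8, 9.59 and 8.73 CPM under knockdown, a fall to 0.473 (adjusted p = 0.000122) that was −0.97 on the log2 scale without knockdown replicate 3. The raised member, SP5, a target of Wnt signalling with a mean under 1 CPM, had 0.219, 0.338 and 0.123 CPM with siScr and 1.47, 0.276 and 0.753 CPM under knockdown, so its groups overlapped, and it was not called by DESeq2, with only the 6 libraries compared, or without vehicle replicate 1, siScr replicate 1, 2 or 3 or knockdown replicate 1 or 3. The Wnt target AXIN2 had a log2FC of −0.26.

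Genes of DNA replication and mitosis that passed the adjusted p did so almost always as increases of less than 2-fold. None of the 40 mitosis genes was called, 25 were higher and none lower by adjusted p, and the median was 0.36. PLK1, the kinase that drives entry into mitosis, had 38.1, 43.0 and 36.0 CPM with siScr and 67.0, 68.1 and 63.4 CPM under knockdown (log2FC 0.76, SE 0.091, adjusted p = 5.21e-05). CDC20, an activator of the anaphase-promoting complex, had 77.8, 74.2 and 71.0 CPM with siScr and 116.4, 109 and 109 CPM under knockdown (log2FC 0.58, adjusted p = 0.000623). PRC1, which bundles the central spindle, had 80.7, 89.2 and 89.7 CPM with siScr and 118, 134 and 133 CPM under knockdown (log2FC 0.57, adjusted p = 0.000174). In these 3 genes the groups stood apart, and the change was below 2-fold. The kinase CDK1 had 294, 239.8 and 241 CPM with siScr and 265, 297 and 329 CPM under knockdown, with overlap (log2FC 0.20, adjusted p = 0.227), and the proliferation marker MKI67 had a log2FC of 0.19. Of 40 DNA replication genes, 1 was called and 19 were higher and 1 lower by adjusted p, with a median of 0.32. TK1, the thymidine kinase of S phase (chr17:78174075-78187233), was the called gene, with 77.8, 76.1 and 71.8 CPM with siScr and 208, 162 and 175 CPM under knockdown. It rose in all 3 knockdown libraries, 2.42-fold (95% range 2.09 to 2.79, adjusted p = 2.89e-06), while the replication clamp PCNA had a log2FC of 0.05 and the licensing factor CDT1 was lower by adjusted p alone (−0.38).

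The promoters of 3 of the mitosis genes show the elements through which such genes are timed in the cell cycle. Capitals mark the core of the cell cycle homology region, TTTGAA or TTCAAA on the other strand, and the source and strand are as for the interferon genes.
PLK1 (chr16:23678639-23678888, plus strand): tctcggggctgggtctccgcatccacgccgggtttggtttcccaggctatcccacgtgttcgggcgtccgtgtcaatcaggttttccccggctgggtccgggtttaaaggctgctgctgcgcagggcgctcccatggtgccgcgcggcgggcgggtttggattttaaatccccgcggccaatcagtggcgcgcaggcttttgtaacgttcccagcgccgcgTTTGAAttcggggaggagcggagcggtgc
CDC20 (chr1:43358731-43358980, plus strand): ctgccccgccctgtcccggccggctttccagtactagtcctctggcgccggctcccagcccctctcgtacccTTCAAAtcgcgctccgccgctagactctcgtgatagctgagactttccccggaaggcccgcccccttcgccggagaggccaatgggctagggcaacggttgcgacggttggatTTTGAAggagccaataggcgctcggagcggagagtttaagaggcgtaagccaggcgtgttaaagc
PRC1 (chr15:90994536-90994785, minus strand): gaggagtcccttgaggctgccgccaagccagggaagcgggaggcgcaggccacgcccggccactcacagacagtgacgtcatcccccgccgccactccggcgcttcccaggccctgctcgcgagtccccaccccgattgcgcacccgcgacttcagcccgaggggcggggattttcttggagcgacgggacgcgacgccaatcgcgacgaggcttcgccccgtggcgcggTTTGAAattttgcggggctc

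TTTGAA was in the promoters of 20 of 34 mitosis genes with a RefSeq promoter (58.8%), against 13.3% of all windows and 11.9% of those of genes tested. In the promoters of well-expressed raised genes it was in 16.8% and in those of lowered genes in 17.0%. The CCAAT box, on either strand, was in 28 of 34 mitosis genes (82.4%) against 41.2% of genes tested, and in 35.5% of raised and 40.0% of lowered genes. In all, 18 motifs were looked at in the promoters, and those not named are not reported.

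Of 29 targets of p53 tested, 2 were called, both lower, 4 were higher and 11 lower by adjusted p, and the median was −0.15. PLK2, a kinase of centriole duplication (chr5:58453982-58460260), had 30.9, 25.5 and 27.3 CPM with siScr and 9.63, 8.10 and 10.3 CPM under knockdown. BTG2, an antiproliferative factor (chr1:203305491-203309602), had 31.6, 29.4 and 27.1 CPM with siScr and 12.7, 11.5 and 11.9 CPM under knockdown. Every knockdown library was below every siScr library, and PLK2 fell to 0.334 (95% range 0.282 to 0.396, adjusted p = 1.99e-06) and BTG2 to 0.409 (95% range 0.355 to 0.472, adjusted p = 2.40e-06). CDKN1A and MDM2, the best known targets, had log2FCs of −0.11 and 0.08, and their groups overlapped.

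Enzymes of steroid and drug metabolism moved in both directions. Of 25 tested, 4 were called higher and 3 lower. CYP1A1, the P450 induced by the aryl hydrocarbon receptor (chr15:74719542-74725610), had 12.9, 14.2 and 13.8 CPM with siScr and 3.93, 4.30 and 3.96 CPM under knockdown. Its groups were tight, and it fell to 0.299 (95% range 0.251 to 0.356, adjusted p = 1.27e-06). CYP4F2, a relative of CYP4F8 that hydroxylates fatty acids and vitamin E, had 1.04, 0.620 and 0.368 CPM with siScr and 0.105, 0.0551 and 0.188 CPM under knockdown (log2FC −2.51, adjusted p = 0.0103), and was not called without siScr replicate 1 (−2.06, adjusted p = 0.0642). SULT2B1, which adds sulphate to cholesterol and steroids (chr19:48552075-48599425), had 4.92, 5.47 and 5.95 CPM with siScr and 18.8, 15.1 and 17.8 CPM under knockdown, 3.17-fold higher (95% range 2.54 to 3.95, adjusted p = 9.72e-06). The other raised members were UGT2B15, UGT2B17 and HSD17B6, an enzyme that oxidises androgens chosen after its values were seen (1.12, adjusted p = 0.00198). The 4 raised members were 2 without siScr replicate 3 or without knockdown replicate 3, when both UGT2B genes lost their calls.

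Genes of stress responses and of lipid synthesis passed mostly by adjusted p without reaching 2-fold. Of 31 genes of the unfolded protein and amino acid responses, none was called (1 without siScr replicate 2), 17 were higher and 1 lower by adjusted p, and the median was 0.31. ATF4, the transcription factor of this response, had 252, 275 and 230.3 CPM with siScr and 444, 397 and 418 CPM under knockdown (log2FC 0.73, adjusted p = 2.71e-05). HSPA5, the main chaperone of the endoplasmic reticulum, had 899, 845 and 852 CPM with siScr and 1043, 1051 and 1058 CPM under knockdown (log2FC 0.28, adjusted p = 0.00654). Both genes were higher in every knockdown library. Of 22 genes of oxidative stress and hypoxia, MT2A and NQO1 were called, 10 were higher and 2 lower by adjusted p, and the median was 0.37. MT2A, a metal-binding metallothionein (chr16:56608199-56609497), had 27.3, 28.0 and 25.7 CPM with siScr, 111, 88.9 and 86.6 CPM under knockdown and 62.5 to 72.9 CPM with vehicle. It rose 3.54-fold (95% range 3.08 to 4.07, adjusted p = 1.15e-07), above the vehicle level. Without siScr replicate 2, 4 members of this list were called higher. Without siScr replicate 3 or knockdown replicate 3, 1 member was called lower. The list median ran from 0.22 to 0.41 without 1 library. The hypoxia genes CA9 and VEGFA were lower by adjusted p alone (−0.90 and −0.60).

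Of 32 genes of sterol and fatty acid synthesis, none was called (1 without siScr replicate 2 or without knockdown replicate 1) and 12 were higher and 2 lower by adjusted p. HMGCS1, an early enzyme of cholesterol synthesis, was nearest to the threshold (0.99, adjusted p = 3.62e-05). FASN, the fatty acid synthase, had 2783, 3449.7 and 3159 CPM with siScr and 4379.8, 3442 and 3311 CPM under knockdown, with overlapping groups (log2FC 0.25, adjusted p = 0.138). Of neuronal genes silenced by REST, through which CoREST is brought to DNA, 13 of the 35 listed could be tested and none was called higher. VGF, a neuropeptide precursor, had 12.5, 10.8 and 10.9 CPM with siScr and 6.34, 3.86 and 2.76 CPM under knockdown, and SYT4, a synaptotagmin, had 3.50, 3.50 and 3.50 and 1.31, 1.65 and 1.38 CPM. Both fell, to 0.383 (adjusted p = 0.000375) and 0.415 (adjusted p = 0.00376), and the neuroendocrine marker SYP had a log2FC of 0.24.

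The same knockdown was compared with LNCaP, where 49 of 17162 genes tested (0.286%) were called. KDM1A and KDM7A fell by 1.05 and 0.93 on the log2 scale there, less than in C4-2, and the differences of −2.04 and −1.56 were both called, so the depth of the knockdown and the line cannot be told apart in what follows. The difference between the lines, tested as an interaction in all 18 libraries, was called for 371 of 18684 genes (1.99%), 236 with the higher log2FC in C4-2 (1.26%) and 135 with the lower (0.723%). Of the genes called in C4-2 and tested in both lines, it was called for 240 of 668 (35.9%), a share drawn among genes that were chosen for a large change in C4-2. Of the 303 raised well-expressed genes it was called for 131, all with the higher log2FC in C4-2, and of the 165 lowered genes for 65, all with the lower log2FC in C4-2, directions that the choice of genes favours. Where LNCaP had a value, 203 of 269 raised genes and 110 of 155 lowered genes had the same sign in LNCaP. Their median log2FC in LNCaP was 0.19 for the raised and −0.22 for the lowered genes.

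BVES had 1.87, 1.51 and 2.73 CPM with siScr and 2.63, 2.19 and 2.25 CPM under knockdown in LNCaP, where the groups lay close together, and the difference between the lines was 2.67 (adjusted p = 1.97e-05). SAMD9 had 8.997, 10.0 and 8.43 CPM with siScr and 10.2, 10.8 and 9.48 CPM under knockdown in LNCaP, and a difference of 2.70 (adjusted p = 1.82e-06). CYP4F8 had 1.26, 2.38 and 1.02 CPM with siScr and 1.09, 2.14 and 1.12 CPM under knockdown in LNCaP, and a difference of −2.74 (adjusted p = 0.00107). These genes, which moved several-fold in C4-2, had LNCaP log2FCs of 0.19, 0.15 and −0.06. ID1 had 9.05, 9.73 and 5.75 CPM with siScr and 16.0, 18.6 and 18.8 CPM under knockdown in LNCaP, a log2FC of 1.13 in the same direction, and the difference of 1.23 was called (adjusted p = 0.0148). For ID3 (LNCaP log2FC 1.02) and HSPB1 (0.81) the difference was not called. CERK, which phosphorylates ceramide, was 2.16-fold higher in C4-2 and had a log2FC of −1.15 in LNCaP, a difference of 2.28 (adjusted p = 9.47e-05).

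**Figure D5:**
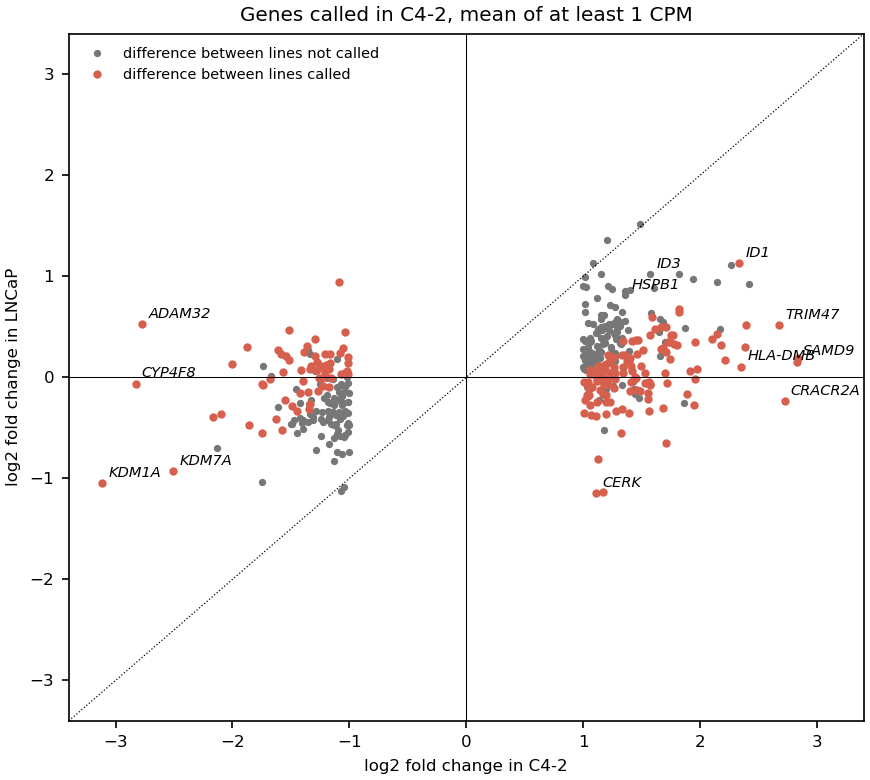
Log2 fold change of dual knockdown over siScr in C4-2 (horizontal) and in LNCaP (vertical), both with R1881, for the 424 well-expressed genes called in C4-2 that have a LNCaP value. Red points are the 189 genes whose difference between the lines was called, grey points the rest, and the dotted line marks equal change. Of the 424 genes, 418 lie closer to 0 in LNCaP and 313 have the same sign in both lines. The genes were chosen for a change of at least 2-fold in C4-2, which by itself favours smaller values in LNCaP.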

How the data were processed

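Total RNA of 18 samples was sequenced as poly(A) libraries with paired ends. Per the labels and the study's methods, the authors trimmed reads with Trim Galore, aligned them with STAR to GRCh38 and counted read pairs per gene with featureCounts 1.5.0-p1 against the Ensembl 83 annotation. The deposited values were raw counts per gene, used as deposited. No strand option is named, so pairs from overlapping genes on opposite strands cannot be told apart, and multigene families may share or lose reads. Gene symbols were matched to 57055 of the 60675 gene identifiers.

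Counts of the 9 C4-2 libraries in 3 groups were fitted with edgeR 4.0.16 (R 4.3.3; TMM factors, filterByExpr with defaults, quasi-likelihood F-test, 2-sided), and dual knockdown was contrasted with siScr, both with R1881. The vehicle libraries were outside the contrast but entered the filter, the TMM factors and the estimate of spread. P-values were adjusted by Benjamini-Hochberg over all genes tested, and genes were called where this p was below 0.05 and the change at least 2-fold in either direction. LNCaP was fitted alike, and the difference between the lines was the interaction in all 18 libraries. CPM values carry TMM factors. The SE was derived from the log2FC and its F-statistic, and the 95% ranges use this SE with a normal quantile. They are therefore narrower than the F-test implies, and the adjusted p is the test. The common biological coefficient of variation was 0.115. Depth was 16611431 to 19732350 counts in the 6 libraries compared, which leaves genes of a few counts imprecise. Scripts were tested on simulated data. Replicates of a group differed by more than sampling noise.

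Named genes were KDM1A and KDM7A, the 12 largest increases and decreases among called genes with a symbol, of at least 1 CPM and with groups that did not overlap, the 10 called genes of highest CPM in each direction, up to 4 called members of each of 27 lists (or the 2 of highest CPM where none was called), the 3 largest changes of each family with at least 4 calls and the 6 largest differences between the lines. All other genes with values, such as further list members, were chosen after their values were seen and only illustrate their list. The members and lists were chosen with earlier results of these data known. Genes of the Y chromosome and XIST were counted and not named, and some other genes are not reported here.

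Alternatives were DESeq2 1.42.0, RLE size factors, a likelihood ratio test, glmTreat, other filters, only the 6 libraries compared, a replicate block, removal of the GC trend and leaving out each library. Promoter sequences were taken from RefSeq (GRCh38.p14), and the counts from GRCh38.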

Additional observations from a re-analysis of the deposited data

Results flagged for a closer look

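Of the 92 named genes tested for it, 50 differed between the lines by the interaction test in all 18 libraries, beside 1.99% of all genes tested. The genes were named for large or called changes in C4-2, or for their difference between the lines, so this count and its direction follow in part from the choice and support nothing. CERK moved in opposite directions, with a log2FC of 1.11 in C4-2 and −1.15 in LNCaP. The values are the log2FC of dual knockdown over siScr in C4-2 minus that in LNCaP, both with R1881. The targeted genes themselves differed, with KDM1A (−2.04) and KDM7A (−1.56), so the depth of the knockdown and the line cannot be told apart.

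The immune and secreted genes were FGL1 (6.62), SAMD9 (2.70), BTN3A2 (2.11), HLA-DMB (2.27), IFIT1 (1.92), IFIT3 (1.80), IFI35 (1.42) and TRIM47 (2.19). FGL1 had 1 count over the C4-2 siScr libraries and 10 counts in each LNCaP group. Its fitted value depends on the prior count and is no bound. The genes of membrane, junction, cytoskeleton and matrix were BVES (2.67), MUC3A (2.87), PMP22 (1.91), ITGA1 (1.92), MMP7 (3.17), AHNAK (1.64), CD2AP (1.10) and KRT15 (2.36). The genes of signalling and regulation, with the abundant PRUNE2 and NEAT1, were CRACR2A (2.98), ID1 (1.23), DUSP5 (2.69), CERK (2.28), PRUNE2 (1.26) and NEAT1 (1.01). The raised enzymes, metal-binding protein and transporter were ELOVL7 (1.36), SULT2B1 (1.19), MT2A (1.20) and SLC7A2 (1.47).

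Among lowered genes, the enzymes and transporters were CYP4F8 (−2.74), CYP4F2 (−2.42), CYP1A1 (−1.65), PLA2G7 (−1.70) and SLC26A3 (−2.16). The receptors, adaptors and kinases were EPHA7 (−1.18), ITPR1 (−1.09), PLK2 (−1.03), IRS2 (−1.24), IRS1 (−1.12) and FZD8 (−1.30). The remaining lowered genes were IVL (−3.32), ADAM32 (−3.27), SNAI2 (−1.12), ORM1 (−1.18), VGF (−1.61), SYT4 (−1.10), ZNF117 (−1.17), HIST1H2AE (−2.08), AP001528.3 (−2.71), AL133338.1 (−1.75) and MT-RNR1 (−1.24). HIST1H2AE lost its call in C4-2 without siScr replicate 1 or without knockdown replicate 2 or 3, with an adjusted p of 0.0728 to 0.0820, and its log2FC was −3.06 without knockdown replicate 1.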

How the results depend on the processing

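The count of called genes was 669, and 523 to 769 without 1 library, lowest without siScr replicate 3 and highest without vehicle replicate 3. By adjusted p alone it was 3983, and by glmTreat, which tests against the 2-fold change itself, 53. For well-expressed genes these settings gave 2029 and 36 higher against 303, and 1753 and 13 lower against 165. Over the members of all lists, without the families, they gave 252 and 13 calls against 54. Without 1 library the ranges were 268 to 314 higher, 134 to 179 lower and 47 to 58 in lists. The other settings stayed within 1.5 times, from 469 (genes of at least 1 CPM) to 742 (likelihood ratio test), with 568 by DESeq2, 566 of them shared. With the replicate block 662 were called, 642 of them shared. The same numbers did not pair the libraries, since deviations of same-numbered libraries correlated at 0.048, 0.018 and 0.027. The difference between the lines was called for 371 genes, 270 to 539 without 1 library and 355 with the replicate block. KDM1A ranged from −3.28 to −3.04 and KDM7A from −2.61 to −2.40 without 1 library. Of 81 named genes called, none changed sign, 18 lost the call without 1 library, 4 under another setting (CLDN3, IGFBP5, SP5 and ST6GALNAC1), and 28 were called by glmTreat. The difference between the lines for CLDN3 was 0.36, with −0.018 (without knockdown replicate 1) to 0.54 (without knockdown replicate 2) in the fits with 1 library less. In the same fits the difference for SP5 ranged from −1.27 (without LNCaP siScr replicate 1) to 3.72 (without LNCaP knockdown replicate 1), the log2FC of SYP from −0.026 to 0.39 and that of VWF from −0.20 to 0.021, and the cause was not tested. Genes of a few counts were limited by depth.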

Other observations

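Gene families that the lists do not cover were counted alike, beside the background of 2.5% of genes called higher and 1.44% called lower. Of 50 histone genes tested, none was called higher and 7 lower, 2 were higher and 23 lower by adjusted p, and the median log2FC was −0.43. HIST1H3J, a histone H3 gene, had 1.37, 1.07 and 1.04 CPM with siScr and 0.367, 0.386 and 0.251 CPM under knockdown (log2FC −1.76, adjusted p = 0.00415). Most histone mRNAs lack a poly(A) tail, the libraries were selected for poly(A), and near-identical histone genes may share reads. The 7 lowered histones were 4 without siScr replicate 1 or without knockdown replicate 2 or 3, and 3 when only genes of at least 1 CPM were tested.

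Of 437 zinc finger genes, 1 was called higher and 4 lower, and 20 were higher and 76 lower by adjusted p. The 4 lowered ones were 2 without siScr replicate 3, and the count called higher was 2 without knockdown replicate 1 and 0 without knockdown replicate 2. ZNF117, a zinc finger gene that overlaps the retroviral gene ERV3-1 (log2FC −1.07), had 17.2, 17.7 and 21.6 CPM with siScr and 4.76, 5.29 and 6.78 CPM under knockdown, and fell to 0.297 (adjusted p = 2.40e-06). Of 249 solute carriers, 6 were called higher and 3 lower, with 5 lower without knockdown replicate 1. SLC7A2, a transporter of arginine and lysine, had 17.2, 18.2 and 16.6 CPM with siScr and 51.1, 61.8 and 65.4 CPM under knockdown, 3.43-fold higher (95% range 2.94 to 4.01, adjusted p = 3.88e-07). Of 23 HOX genes, which set position along the body axis, 2 were called higher and none lower, and of 19 tetraspanins and TM4SF proteins TSPAN8 alone was called.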
